A study of Mus musculus with 3 samples.

Results

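The data described here are 5865 endothelial nuclei of mouse brown adipose tissue (BAT), 1528 from a denervated library and 4337 from a sham library, out of 24489 barcodes of these libraries that passed the filters and 44897 barcodes in the whole series. A UMI (unique molecular identifier) marks 1 captured RNA molecule, and a barcode passed when it held 200 genes or more and no more than 50% of its UMIs were mitochondrial. The nuclei were chosen by counts of marker UMIs. The summed UMIs of the endothelial genes Pecam1, Flt1, Kdr, Ptprb, Cyyr1 and Adgrl4 had to be at least 3, and at least 4 times both the sum of the adipocyte genes Adipoq, Plin1, Pparg, Cidea and Ppara and the sum of the pericyte genes Pdgfrb, Notch3, Abcc9 and Kcnq5. The 4466 nuclei that met this rule in an untreated library serve as a further reference level, and no value of the conditions entered the rule.

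All 3 libraries held nuclei of wild-type (WT) C57Bl6 adult mice, and differed in treatment, which the labels give as denervation, sham operation and non-treatment. The header of the denervated table gives a sample name that contains nKO, and that of the untreated table one that contains nC. The labels explain neither name. The study's outline for the denervated nuclei gives the same strain and names no gene deletion. The wild-type genotype of every denervated value thus rests on the labels and that outline. For denervation, the intercostal nerves to the left lobe of interscapular BAT had been cut in male mice and the tissue was taken on day 3. The study's outline of that procedure also lists tamoxifen administrations, which its outline for the untreated mice does not. In the methods of the study, the nuclei came from the floating layer of digested tissue, in which adipocytes carry fragments of vessels along. Tissue of several mice was pooled for the untreated and for the denervated library, and the sham library is not described there. With 1 library per condition there is no replicate: no difference has a test, condition and library cannot be told apart, and every interval is a 95% interval that covers counting error only.

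Endothelial cells line the vessels that bring fatty acids, glucose and oxygen to brown adipocytes, and in this tissue they carry the machinery that holds lipoprotein lipase at the capillary wall and passes fatty acids inward. Sympathetic nerves release noradrenaline onto brown adipocytes and vessels, and the capillary bed of BAT is known to grow with sympathetic stimulation and to regress without it. Endothelial cells also shape the tissue through secreted ligands such as stem cell factor (Kitl) and BMP6 and through the basement membrane that they share with adipocytes and pericytes.

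The endothelial nuclei carried 748037 UMIs of nuclear genes in the denervated, 2677139 in the sham and 3038632 in the untreated library, at medians of 403.5, 516 and 655 per nucleus. Mitochondrial UMIs were 5.93%, 13.9% and 10.1% of their total. They made up 14.6% of filtered barcodes in the denervated library (13.9 to 15.3), 30.9% in the sham library (30.2 to 31.7) and 37.9% in the untreated library (37.00 to 38.8), shares that the digestion, the floating layer and the nuclear sort can set. Levels are given as CPM, the UMIs of a gene per 1000000 UMIs of nuclear genes over all endothelial nuclei of a library, so that 1 UMI was worth 1.34 CPM in the denervated and 0.374 CPM in the sham library. Where 3 values follow each other without further mention, they are the levels in denervated, sham and untreated endothelial nuclei in that order, and an interval follows a value in brackets. Just inside the rule, 209 denervated and 423 sham nuclei had 3 endothelial UMIs, and 223 and 369 that met the rest of the rule had 2 and stayed outside. Between 251 and 278 cell barcodes were shared by each pair of libraries, 6 of them endothelial in both the denervated and the sham library.

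The label held against markers that the rule had not used. The 24 genes of an endothelial identity list, among them the junction gene Cdh5, the receptor gene Tie1 and the transcription factor gene Fli1, summed to 14741, 16134 and 16386 CPM in the denervated, sham and untreated endothelial nuclei, against 1838, 1694 and 1809 CPM in nuclei selected by the adipocyte genes. Their median log2 ratio of denervated over sham was -0.058, beside -0.01 for all 7715 genes measured, meaning genes with a mean of at least 20 CPM in the 2 libraries. Cdh5 had 770.0, 861 and 898 CPM, and Tie1 had 1334, 1389 and 1438 CPM. Of the 23 measured members, 0 were at least 2-fold higher and 1 at least 2-fold lower, Ushbp1 at 406, 824 and 657 CPM. The other measured members differed by less than 2-fold between denervated and sham nuclei. With ambient RNA subtracted, the median of the list became -2.73. Barcodes with fewer than 200 detected genes held 11098 and 10417 CPM of the rule's endothelial genes in the denervated and sham library, against 13676 and 12900 CPM in the nuclei. Emcn, a surface gene of capillaries and veins, had 475, 855 and 909 CPM. Defining markers of immune cells, Schwann cells and skeletal muscle were near 0: the summed lists of 15, 9 and 8 genes stayed between 21.4 and 105 CPM per library, and none of their members was measured. In the denervated nuclei, 5 immune, 0 Schwann and 3 muscle markers had no UMI. The summed lists of smooth muscle and fibroblast markers were at 241 and 197 CPM in the denervated and at 208 and 186 CPM in the sham nuclei. Pericyte markers summed to 2072, 1919.6 and 1670.2 CPM, most of it Ebf1 and Rgs5. Of the 4 measured members 0 were at least 2-fold higher and 2 lower (over all measured genes, 6.49% and 5.99%), and Steap4, 1 of these 2, reached the measured level only through the sham library, so nothing is read from that count. The pericyte genes of the rule, which the selection itself limits, summed to 81.5 CPM in denervated and 201 CPM in sham nuclei, and their part in the results was not tested.

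RNA of adipocyte genes was present in these nuclei, and its level differed between the libraries. The 22 adipocyte markers summed to 11024, 4523 and 8638 CPM in denervated, sham and untreated endothelial nuclei and to 44264, 25976 and 47293 CPM in adipocyte nuclei. In barcodes with fewer than 200 detected genes, the 18 of these markers that were measured summed to 11641 CPM in the denervated and 11648 CPM in the sham library, beside 10931 and 4485 CPM in the endothelial nuclei. Of the 18 measured members, 7 were at least 2-fold higher in denervated than sham endothelial nuclei and 0 at least 2-fold lower, and their median log2 ratio was 0.92, where 6.49% and 5.99% of all measured genes passed 2-fold in these directions. Plin4, 1 of the 7, reached the measured level only through the denervated library, so the filter fixed its call. Scd1, the stearoyl-CoA desaturase of fatty acid synthesis, had 5587, 1611 and 4087 CPM in endothelial nuclei and 15338, 4070.1 and 14455 CPM in adipocyte nuclei. Its log2 ratio of denervated over sham was 1.79 (1.73 to 1.86) in endothelial and 1.91 (1.89 to 1.94) in adipocyte nuclei, so the sham library was low in both. For this reason the ratio in adipocyte nuclei of the same libraries is given beside many of the genes below that adipocytes also express, and genes are called endothelial-leaning where their CPM in untreated endothelial nuclei was at least 2 times that in untreated adipocyte and pericyte nuclei.

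Over all 7715 measured genes, 501 (6.49%) were at least 2-fold higher and 462 (5.99%) at least 2-fold lower in denervated than in sham endothelial nuclei, and 90% of ratios lay between -1.06 and 1.13 on the log2 scale. Of these, 155 of the higher and 177 of the lower genes were under 20 CPM in the other library, so they reached the measured level only through the library where they were high. Scaled to totals that include mitochondrial UMIs, the split was 638 higher and 275 lower, with a median ratio of 0.12. Of the 1054 measured endothelial-leaning genes, 71 (6.74%) were at least 2-fold higher and 105 (9.96%) at least 2-fold lower. The sham library did not coincide with the untreated one: 2.91% of genes measured in that pair were at least 2-fold higher and 1.95% at least 2-fold lower in sham, while 3.01% and 1.16% were so in denervated against untreated nuclei. In adipocyte nuclei, 5.69% of measured genes were at least 2-fold higher and 7.77% lower in denervated than sham, and in pericyte nuclei 8.25% and 13.2%. These comparisons share libraries, so the untreated level is given beside most genes. The gene lists and their members were chosen with earlier results of these data known. A list's count beside the share of all genes is therefore a description only.

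**Figure D1:**
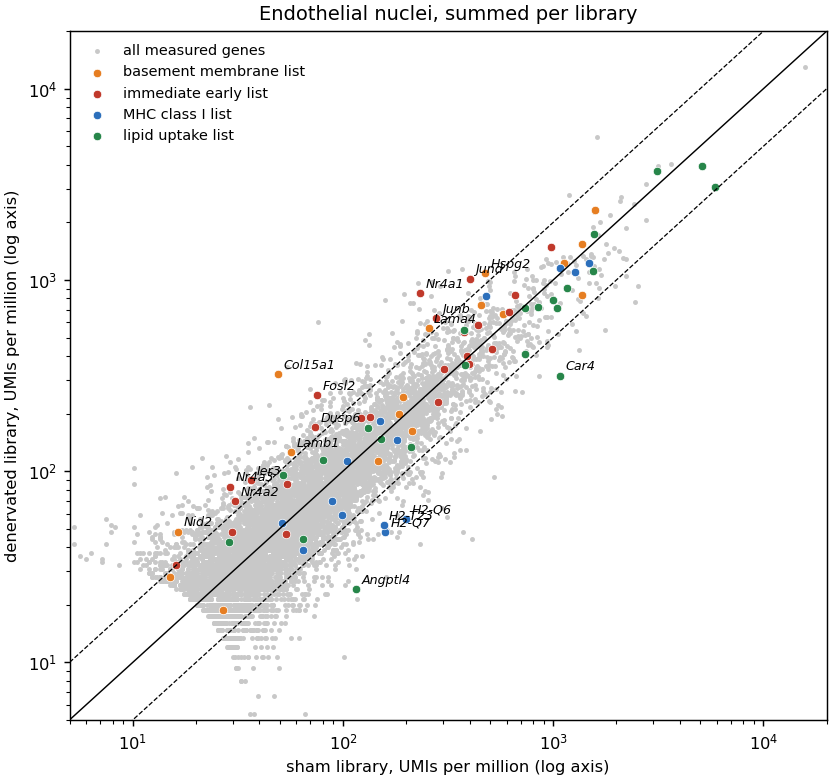
Levels of the measured genes in endothelial nuclei of the sham library (x axis, CPM, log axis) and the denervated library (y axis, CPM, log axis); each point is 1 gene with at least 1 UMI in both, colours mark 4 gene lists, the solid line is equality and the dashed lines are 2-fold. Col15a1, at 48.9 and 322 CPM, lies above the upper dashed line, and Car4, at 1083 and 315 CPM, below the lower one.

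Genes of the basement membrane, the sheet of collagens, laminins and proteoglycans beneath the endothelium, included several that were higher in denervated nuclei. In this list 5 of the 17 measured members were at least 2-fold higher and 0 at least 2-fold lower (over all measured genes, 6.49% and 5.99%). The members were chosen with earlier results of these data known, so nothing is read from that count. The median log2 ratio was 0.34 over sham and 0.195 over untreated. Col15a1, the collagen XV chain that lies at the outer face of vascular basement membranes (chromosome 4 from 47208161 to 47313167 of GRCm38), had 322 CPM (283 to 366) in denervated, 48.9 (40.9 to 58.1) in sham and 29.9 (24.1 to 36.8) in untreated nuclei. It was 6.58-fold higher in denervated than sham nuclei, a log2 ratio of 2.72 (2.41 to 3.04), and the denervated level stood above both others. Its UMIs came from 113 denervated and 87 sham nuclei, and in adipocyte nuclei, at 32.4 and 15.6 CPM, the log2 ratio was 1.05 (0.67 to 1.45). Hspg2, the heparan sulfate proteoglycan perlecan (chromosome 4 from 137468769 to 137570630), had 1087 CPM (1013 to 1164) in denervated, 476 (450.1 to 503) in sham and 817 (786 to 850.3) in untreated nuclei. Its log2 ratio was 1.19 (1.06 to 1.32) over sham and 0.41 over untreated. Here the sham library was the low one, and the ratio in adipocyte nuclei, 1.25 (1.05 to 1.45), was of the same size. The laminin chain gene Lama4 had 559, 255 and 467 CPM, a log2 ratio of 1.13 (0.95 to 1.31) over sham. For Lama4, too, the sham library was the low one. Nid2, which links laminin to collagen IV, had 48.1, 16.4 and 13.2 CPM, a log2 ratio of 1.55 (0.87 to 2.22), and of the 5 it is the 1 that reached the measured level only through the denervated library. Lamb1, the laminin beta 1 chain, had 126, 56.8 and 46.4 CPM and went opposite ways by nucleus type: 1.15 (0.76 to 1.53) in endothelial and -1.24 (-1.41 to -1.06) in adipocyte nuclei, where it had 72.9 and 172 CPM. The most abundant members differed by less: Sparc, a collagen-binding matrix protein, had a log2 ratio of 0.55 (0.47 to 0.63), and the collagen IV chains Col4a1 and Col4a2 had 0.17 (0.069 to 0.26) and 0.13 (0.021 to 0.24). The collagen receptor subunit gene Itga1 had 838, 1364 and 1198 CPM, a log2 ratio of -0.70 that did not reach 2-fold.

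Genes of sprouting vessels are described one by one, because 3 of the 4 that were at least 2-fold higher, Apln, Cxcr4 and Nid2, reached the measured level only through the denervated library (over all measured genes, 6.49% were at least 2-fold higher and 5.99% lower), so that filter fixed their difference. Apln, the apelin ligand made by tip cells, had 85.6 CPM (65.9 to 109) in denervated, 10.1 (6.65 to 14.7) in sham and 21.4 (16.5 to 27.3) in untreated nuclei, a log2 ratio of 3.08 (2.41 to 3.79). The signal was sparse: 24 denervated and 14 sham nuclei held a UMI. Mcam, the adhesion gene CD146, had 270.0, 69.5 and 85.2 CPM, a log2 ratio of 1.96 (1.66 to 2.25), and was at 145 and 133 CPM in adipocyte nuclei. Cxcr4, a chemokine receptor gene of tip cells, had 69.5, 18.3 and 49.04 CPM, and its log2 ratio of 1.93 (1.33 to 2.52) over sham became 0.50 over untreated. Trp53i11 was the member at least 2-fold lower, at 147, 325 and 238 CPM. Cd34 and Dpysl3 are not members of the sprouting list and are given because they are among the 15 largest ratios. Cd34, a sialomucin of capillary and progenitor surfaces (chromosome 1 from 194938819 to 194961279), had 967 CPM (897 to 1039.6) in denervated, 227 (209.8 to 246) in sham and 298 (279 to 318) in untreated nuclei. It was 4.25-fold higher than in sham, a log2 ratio of 2.09 (1.93 to 2.24), and 1.70 over untreated, and adipocyte nuclei held 19.5 and 8.28 CPM. Dpysl3, a cytoskeletal gene known from growth cones, had 120.3, 27.6 and 18.4 CPM, a log2 ratio of 2.12 (1.66 to 2.59). In Dpysl3, sham and untreated nuclei were low and the denervated library was the high one.

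Cell cycle genes were rare in every library. Of the 21 proliferation genes 4 reached the measured level, and Mki67 and Top2a did so only through the denervated library, so that filter fixed their difference and no count or median is drawn from this list. Mki67, which marks cycling cells, had 38 UMIs in 11 denervated nuclei, 6 in 5 sham nuclei and 1 in the untreated nuclei, a log2 ratio of 4.50 (3.25 to 6.04) over sham. Top2a, the topoisomerase of S phase to mitosis, had 31, 14 and 6 UMIs in denervated, sham and untreated nuclei, a log2 ratio of 2.99 (2.03 to 4.01). Nuclei with at least 2 UMIs of the whole proliferation list were 2.36% of denervated (1.66 to 3.25), 1.64% of sham (1.28 to 2.06) and 1.55% of untreated nuclei (1.20 to 1.95), with overlapping intervals. Those with a UMI of Mki67 or Top2a were 0.98% (0.55 to 1.61), 0.23% (0.11 to 0.42) and 0.13% (0.049 to 0.29). There the denervated and sham intervals did not overlap, for genes whose difference the filter fixed. Both shares are without thinning, and the denervated nuclei held the fewest UMIs per nucleus. The values of Mki67 and Top2a rest on few nuclei, and some carried many of the UMIs, up to 11 of Top2a in 1 denervated nucleus. Ccnd1, the cyclin of the G1 phase, had 217 CPM (185 to 253) in denervated, 36.2 (29.4 to 44.2) in sham and 171 (157 to 186) in untreated nuclei, a log2 ratio of 2.58 (2.21 to 2.96) over sham and 0.34 over untreated. Of 162 denervated UMIs of Ccnd1, 32 were in 1 nucleus. For Ccnd1, the sham library was the low one.

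Immediate early genes, the transcription factors and phosphatases that cells induce within minutes of a stimulus, had 20 of 24 log2 ratios above 0 in endothelial nuclei. Of this list 8 of the 24 measured members were at least 2-fold higher and 0 at least 2-fold lower (over all measured genes, 6.49% and 5.99%). The members were chosen with earlier results of these data known, so nothing is read from that count. The median log2 ratio was 0.62 in endothelial nuclei over sham, 0.74 over untreated, and, over sham, -0.43 in adipocyte and 0.33 in pericyte nuclei. Nr4a1, the orphan nuclear receptor Nur77 (chromosome 15 from 101254269 to 101274795), had 850.2 CPM (785 to 919) in denervated, 233 (215 to 252) in sham and 341 (320.5 to 362) in untreated nuclei. It was 3.65-fold higher than in sham, a log2 ratio of 1.87 (1.71 to 2.03). In adipocyte nuclei its log2 ratio was -0.49 (-0.65 to -0.34), and the difference between the nucleus types was 2.36 (2.14 to 2.59) on the log2 scale. Its paralogs were lower in level and went the same way: Nr4a3 had 82.9, 29.1 and 28.6 CPM, a log2 ratio of 1.51 (1.003 to 2.01). Nr4a2 had 69.5, 30.6 and 35.2 CPM, a log2 ratio of 1.18 (0.65 to 1.70). The AP-1 subunit genes Fosl2, Jund and Junb had log2 ratios of 1.72 (1.43 to 2.02), 1.33 (1.20 to 1.47) and 1.18 (1.01 to 1.35), from 629.6, 278 and 207 CPM for Junb and 1013, 402 and 675 CPM for Jund. Fos had 365, 398 and 217 CPM, without a rise, with log2 ratios of -0.12 (-0.32 to 0.069) in endothelial and -2.74 (-2.94 to -2.56) in adipocyte nuclei. Egr1, the most abundant member, had 1484, 980.2 and 889 CPM, a log2 ratio of 0.60 (0.50 to 0.70) in endothelial and -2.08 (-2.19 to -1.96) in adipocyte nuclei. For Fos and Egr1 the sham adipocyte nuclei stood out, at 339.6 and 598 CPM against 50.7 and 142 CPM in denervated ones. Dusp6 and Ier3, both feedback genes of growth factor signalling, had log2 ratios of 1.21 (0.87 to 1.54) and 1.29 (0.82 to 1.75), beside 1.69 (1.46 to 1.93) and 1.23 (0.78 to 1.69) in adipocyte nuclei.

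The upstream sequences of the Nr4a genes are shown because all 3 rose together and because their promoters are known to answer to cyclic AMP through CREB. Coordinates refer to the start of the RefSeq entry. In the RefSeq promoter table (GRCm38.p6, 250 bases before to 50 after the start), the core TGACG of the cyclic AMP response element, read on both strands, was in 20.8% of 32851 promoters, at 4 or more copies in 0.231%, and the full palindrome TGACGTCA, which contains it, in 1.79%. Of the 8 immediate early members at least 2-fold higher, 4 held this core, and so did 9 of the 18 measured members with an entry. Here and below, a gene counts once where any of its entries holds the motif. The shares over all promoters count entries, so the units differ. The 250 bases before the start follow for Nr4a1 at chr15:101266596-101266845 (plus strand), Nr4a2 at chr2:57124004-57124253 (minus strand) and Nr4a3 at chr4:48045055-48045304 (plus strand), read 5′ to 3′ along the gene with the cores in capitals (CGTCA where the match is on the other strand), 4 in each.

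Nr4a1: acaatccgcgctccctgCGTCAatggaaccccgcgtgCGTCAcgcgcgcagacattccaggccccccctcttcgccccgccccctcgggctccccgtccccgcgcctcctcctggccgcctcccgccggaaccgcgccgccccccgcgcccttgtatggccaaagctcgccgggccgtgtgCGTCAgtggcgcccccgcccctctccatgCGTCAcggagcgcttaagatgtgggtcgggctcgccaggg
Nr4a2: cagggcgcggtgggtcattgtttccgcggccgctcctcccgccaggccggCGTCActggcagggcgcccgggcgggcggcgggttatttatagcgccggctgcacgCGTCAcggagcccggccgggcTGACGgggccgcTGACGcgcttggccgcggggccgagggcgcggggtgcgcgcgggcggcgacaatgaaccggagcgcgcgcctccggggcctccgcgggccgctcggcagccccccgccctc
Nr4a3: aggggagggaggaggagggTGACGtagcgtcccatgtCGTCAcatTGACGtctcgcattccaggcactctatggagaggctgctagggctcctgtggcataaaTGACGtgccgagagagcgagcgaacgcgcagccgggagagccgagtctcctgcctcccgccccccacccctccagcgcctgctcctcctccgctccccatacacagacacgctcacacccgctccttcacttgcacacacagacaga

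The cores began 233, 213, 69 and 40 bases before the start in Nr4a1, and 231, 213, 205 and 147 bases before it in Nr4a3. A match of letters is a description of the sequence, not evidence of binding.

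The lists of flow response, BMP and TGFb and Notch genes held few called members, and those with the larger ratios are given as single genes. In the flow response list 1 of the 10 measured members were at least 2-fold higher and 1 at least 2-fold lower (over all measured genes, 6.49% and 5.99%), in the BMP and TGFb list 2 and 1 of 16, and in the Notch list 1 and 0 of 15. The lower BMP and TGFb gene, the activin receptor gene Acvr2b, reached the measured level only through the sham library, so the filter fixed its call. Klf2, induced by laminar shear stress (chromosome 8 from 72319033 to 72321656), had 762 CPM (701 to 827) in denervated, 214 (197 to 233) in sham and 575 (548 to 602) in untreated nuclei. Its log2 ratio was 1.83 (1.66 to 1.999) over sham and 0.41 over untreated. Id1 and Id3, inhibitors of DNA binding that are targets of BMP signalling, had 237, 81.4 and 272 CPM and 303, 134 and 419 CPM. Their log2 ratios over sham were 1.54 (1.24 to 1.83) and 1.18 (0.93 to 1.42). Against untreated nuclei, the log2 ratios of Id1 and Id3 were -0.20 and -0.46. Nrarp, a feedback gene of Notch, had 164, 67.2 and 118 CPM, a log2 ratio of 1.29 (0.95 to 1.63). Unc5b, a netrin receptor gene of arteries and capillaries, belongs to the arterial and guidance receptor lists instead. It had 213, 98.6 and 249 CPM, a log2 ratio of 1.11 (0.81 to 1.40). In these 5 genes the sham level was the lowest of the libraries, and in Id1, Id3 and Unc5b the denervated level was below the untreated one. The flow response member at least 2-fold lower was Txnip, an arrestin-like brake on glucose uptake, at 523, 1049.6 and 686 CPM.

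Genes that capillary endothelium uses to take up and pass on lipid mostly had log2 ratios a little below 0. In the lipid uptake list 0 of the 22 measured members were at least 2-fold higher and 2 at least 2-fold lower (over all measured genes, 6.49% and 5.99%), 15 of 22 ratios were below 0, and the median log2 ratio was -0.29 over sham and -0.30 over untreated. Over sham, the median of the same genes was -0.53 in adipocyte and -0.59 in pericyte nuclei, so the lower level was not particular to endothelial nuclei. With ambient RNA subtracted, the endothelial median became 0.93. Car4, the carbonic anhydrase on the capillary surface (chromosome 11 from 84957786 to 84966044), had 315 CPM (277 to 358) in denervated, 1083 (1044 to 1123) in sham and 484 (460.0 to 509.8) in untreated nuclei. It was 3.43-fold lower in denervated than sham nuclei, a log2 ratio of -1.78 (-1.98 to -1.59), and the untreated level lay between. The fatty acid binding protein gene Fabp4 had 3073, 5861 and 4113 CPM, a log2 ratio of -0.93 (-0.995 to -0.87), and in adipocyte nuclei, which also express it, -1.13 (-1.18 to -1.09). Cd36, the fatty acid translocase, had 3924, 5097 and 6023 CPM, a log2 ratio of -0.38 (-0.44 to -0.32) in endothelial and 0.061 (0.01 to 0.11) in adipocyte nuclei. Gpihbp1, which anchors lipoprotein lipase in capillaries, had 789, 1001 and 902 CPM, a log2 ratio of -0.34 (-0.48 to -0.22). Fabp4, Cd36 and Gpihbp1 differed by less than 2-fold between any of the libraries, with the denervated level the lowest in each. Angptl4, a secreted inhibitor of lipoprotein lipase, had 24.1, 116 and 29.3 CPM, a log2 ratio of -2.27 (-3.04 to -1.58), and was lower in adipocyte nuclei too, from 413 to 60.2 CPM. Aqp1 and Cav1, the water channel and caveolin genes of capillaries, had log2 ratios of 0.26 (0.20 to 0.32) and 0.16 (0.074 to 0.25).

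Several of the lowest ratios among endothelial-leaning genes belonged to abundant genes, chosen here after their values were seen. Xdh, xanthine dehydrogenase of purine breakdown (chromosome 17 from 73883895 to 73950196), had 548 CPM (496 to 604) in denervated, 1768 (1718 to 1819) in sham and 824 (792 to 857) in untreated nuclei. Its log2 ratio was -1.69 (-1.84 to -1.54) in endothelial nuclei and -0.028 (-0.14 to 0.082) in adipocyte nuclei. Ablim3, an actin-binding LIM protein gene, had 765 CPM (703 to 830.0) in denervated, 2441 (2383 to 2501) in sham and 1296 (1256 to 1337) in untreated nuclei, a log2 ratio of -1.67 (-1.80 to -1.55). Kank3, an adaptor gene at the edge of focal adhesions, had 428, 1329 and 565 CPM, a log2 ratio of -1.64 (-1.81 to -1.47). In these genes the sham library was the highest and the denervated the lowest, with the untreated level nearer to the denervated one. Lpar6, a lysophosphatidic acid receptor gene, had 93.6, 522 and 211 CPM, a log2 ratio of -2.48 (-2.85 to -2.13) over sham and -1.17 over untreated. Gpr160, an orphan receptor gene, had 41.4, 232 and 96.1 CPM, a log2 ratio of -2.49 (-3.06 to -1.97). Pbld1, a phenazine biosynthesis-like domain gene whose near copy Pbld2 can share its reads, had 48.1, 374 and 119 CPM, a log2 ratio of -2.96 (-3.48 to -2.48).

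**Figure D2:**
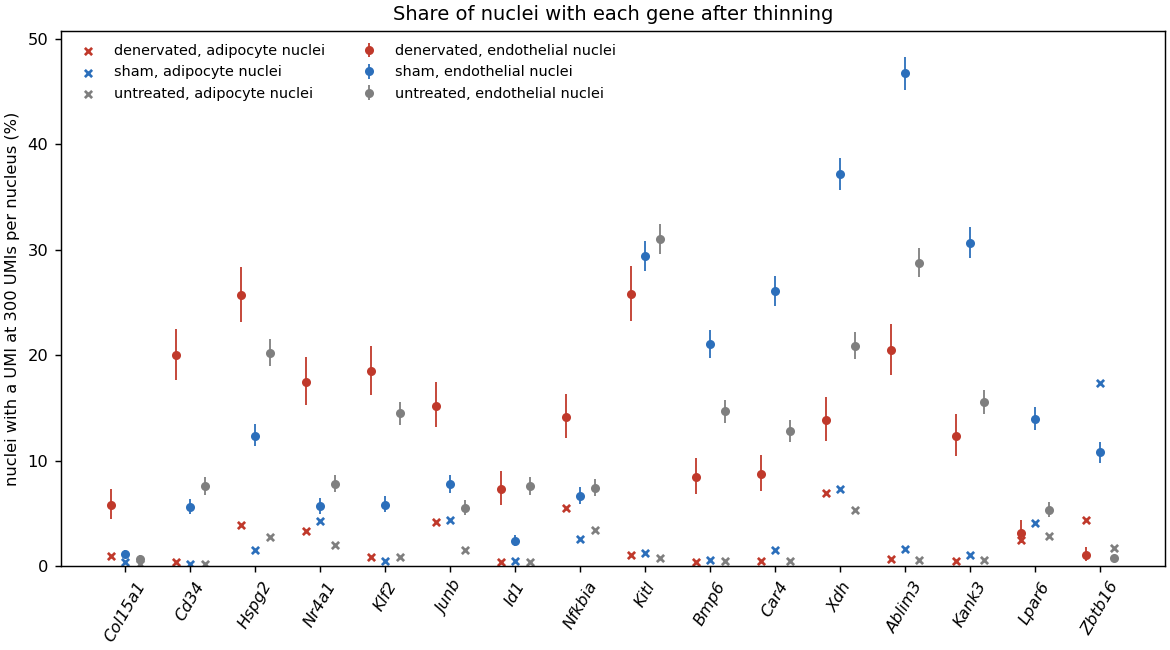
Share of nuclei with at least 1 UMI of each gene (y axis, percent) after each nucleus was thinned to 300 UMIs, for 16 genes (x axis) in the 3 libraries; points with 95% exact binomial intervals are endothelial nuclei and crosses are adipocyte nuclei of the same library. Cd34 was found in 20.04% of denervated and 5.64% of sham endothelial nuclei, and Ablim3 in 20.5% and 46.7%.

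The share of nuclei with a UMI moved with the level of each of these genes. With each nucleus thinned to 300 UMIs, which left out 420 denervated, 452 sham and 349 untreated nuclei with fewer, Cd34 was detected in 20.04% (17.7 to 22.5) of denervated, 5.64% (4.93 to 6.41) of sham and 7.60% (6.81 to 8.45) of untreated endothelial nuclei, and in 0.413% and 0.238% of denervated and sham adipocyte nuclei. Without thinning the shares were 24.5%, 10.4% and 14.5%. Nr4a1 was detected in 17.5% (15.3 to 19.9) of denervated and 5.71% (5.01 to 6.49) of sham endothelial nuclei, beside 3.33% and 4.30% of adipocyte nuclei. Ablim3 went the other way, with 20.5% (18.1 to 22.99) and 46.7% (45.2 to 48.3), beside 0.744% and 1.66% of adipocyte nuclei. Col15a1 reached 5.78% (4.48 to 7.32) of denervated and 1.13% (0.824 to 1.52) of sham nuclei, beside 0.951% and 0.396% of adipocyte nuclei, so that most nuclei showed no Col15a1 at this depth. The shares of Cd34, Nr4a1, Ablim3 and Col15a1 kept the order of the CPM values.

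Ligands of interest to the study differed from each other in their ratios. Kitl, which encodes stem cell factor (chromosome 10 from 100015630 to 100100416), had 1191 CPM (1114 to 1272) in denervated, 1279.7 (1237 to 1323) in sham and 1362 (1321 to 1405) in untreated nuclei. Its log2 ratio was -0.10 (-0.21 to 0.00) over sham and -0.19 over untreated. A difference of 2-fold in either direction is outside that interval as far as counting error goes. Its receptor gene Kit, an adipocyte gene here, had 64.2, 20.2 and 52.98 CPM in endothelial and 186, 39.7 and 325 CPM in adipocyte nuclei, with log2 ratios of 1.67 (1.08 to 2.26) and 2.23 (2.01 to 2.45). Bmp6 (chromosome 13 from 38345107 to 38500302) had 315 CPM (277 to 358) in denervated, 853 (819 to 889) in sham and 591 (564 to 619) in untreated nuclei, 2.70-fold lower than sham. It had a log2 ratio of -1.44 (-1.63 to -1.24) over sham and -0.91 over untreated. Bmp6 was thus lowest in the denervated and highest in the sham library, while Kitl differed by less than 2-fold between the libraries except with ambient RNA subtracted. Over the alternatives the log2 ratio of Kitl ran from -6.13, with ambient RNA subtracted, to 0.023, with totals that include mitochondrial UMIs. The ephrin genes Efnb1 and Efnb2 had 266, 216 and 371 CPM and 209.9, 242 and 283 CPM, with log2 ratios of 0.30 (0.064 to 0.54) and -0.21 (-0.47 to 0.048). In the whole list of endothelial ligands 3 of the 26 measured members were at least 2-fold higher and 2 at least 2-fold lower (over all measured genes, 6.49% and 5.99%), with a median of 0.045. Besides Hspg2 and Lama4, the member at least 2-fold higher was Hbegf, an EGF-family growth factor gene, at 37.4, 18.7 and 22.05 CPM. Besides Bmp6 the lower one was Ntn4, a netrin of basement membranes, at 18.7, 39.6 and 6.91 CPM. Hbegf and Ntn4 reached the measured level only through the library where they were high.

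Interferon-stimulated genes mostly had log2 ratios below 0 in endothelial nuclei and above 0 in adipocyte nuclei. In the interferon list 2 of the 24 measured members were at least 2-fold higher and 4 at least 2-fold lower (over all measured genes, 6.49% and 5.99%), and 17 of the 24 ratios were below 0. The median log2 ratio was -0.53 over sham and -0.26 over untreated, against 0.69 over sham in adipocyte nuclei. Gbp7, an interferon-inducible GTPase gene, had 124 CPM (100.3 to 152) in denervated, 338 (316 to 360.4) in sham and 259 (242 to 278) in untreated nuclei, a log2 ratio of -1.44 (-1.77 to -1.13). Its near copies, Gbp3 among them, can share its reads. Ddx60, an RNA helicase gene of antiviral sensing, had 48.1, 102 and 64.8 CPM, with log2 ratios of -1.09 (-1.63 to -0.58) in endothelial and 1.54 (0.97 to 2.14) in adipocyte nuclei. Stat2, a transcription factor of the interferon pathway, had 82.9, 166 and 135 CPM, a log2 ratio of -1.004 (-1.41 to -0.62). The members at least 2-fold higher included Isg15, a ubiquitin-like modifier, at 74.9, 27.6 and 54.3 CPM with a log2 ratio of 1.44 (0.91 to 1.96). Also higher was Bst2, a membrane tether of virions, at 297, 124 and 197 CPM with 1.26 (1.01 to 1.51). Both directions thus occurred within the list, and Isg15 and Bst2 also rose in adipocyte nuclei, by 2.04 (0.71 to 3.62) and 1.37 (0.96 to 1.80). The chemokine gene Cxcl9, induced by interferon gamma, had 32.1, 107 and 83.9 CPM, a log2 ratio of -1.74 (-2.40 to -1.13), with 0.52 (-0.16 to 1.21) in adipocyte nuclei.

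The interferon-stimulated response element, searched as GAAA, any 2 bases and GAAA again on both strands, was in 3.44% of all promoters, in 12 of the 21 measured interferon genes with an entry and in all 4 that were at least 2-fold lower. It did not separate the directions, since Isg15 and Bst2 held it as well. The bases before the start of Gbp7, which was lower, at chr3:142530086-142530335 (plus strand), and of Isg15, which was higher, at chr4:156200819-156201068 (minus strand), are shown with the element in capitals.

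Gbp7: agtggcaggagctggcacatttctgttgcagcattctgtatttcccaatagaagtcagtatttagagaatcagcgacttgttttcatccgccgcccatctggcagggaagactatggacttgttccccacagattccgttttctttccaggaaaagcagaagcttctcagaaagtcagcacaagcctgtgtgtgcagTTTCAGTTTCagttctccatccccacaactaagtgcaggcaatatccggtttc
Isg15: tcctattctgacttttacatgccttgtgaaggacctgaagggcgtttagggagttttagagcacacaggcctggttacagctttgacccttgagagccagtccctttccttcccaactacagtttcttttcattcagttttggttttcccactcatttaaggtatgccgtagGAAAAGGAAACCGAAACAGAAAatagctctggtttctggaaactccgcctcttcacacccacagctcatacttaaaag

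In Isg15 the capitals hold 3 overlapping matches, and in Gbp7 1 match on the other strand that begins 53 bases before the start.

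Genes of MHC class I, which present peptides to T cells, included 3 that were lower in denervated nuclei. In this list 0 of the 14 measured members were at least 2-fold higher and 3 at least 2-fold lower (over all measured genes, 6.49% and 5.99%), with a median log2 ratio of -0.30. The classical gene H2-K1 and the light chain gene B2m had 1099, 1267 and 692 CPM and 1158, 1078 and 1063 CPM, log2 ratios of -0.21 (-0.32 to -0.10) and 0.10 (-0.01 to 0.21). The members at least 2-fold lower were the nonclassical genes H2-Q6, H2-Q7 and H2-T23. The near-identical sequences of H2-Q6 and H2-Q7 make the split of reads between them uncertain. Sharing of reads with H2-T23 was not examined. H2-Q6 had 56.1 CPM (40.5 to 75.9) in denervated, 200.2 (184 to 218) in sham and 29.9 (24.1 to 36.8) in untreated nuclei, a log2 ratio of -1.83 (-2.32 to -1.38) over sham. H2-Q7 had 48.1, 158 and 37.5 CPM, a log2 ratio of -1.72 (-2.25 to -1.23). For H2-Q6 and H2-Q7 the sham library was the high one, and the ratios over untreated were 0.91 and 0.36. H2-T23 had 52.1, 156 and 74.05 CPM, a log2 ratio of -1.58 (-2.10 to -1.11) over sham.

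**Figure D3:**
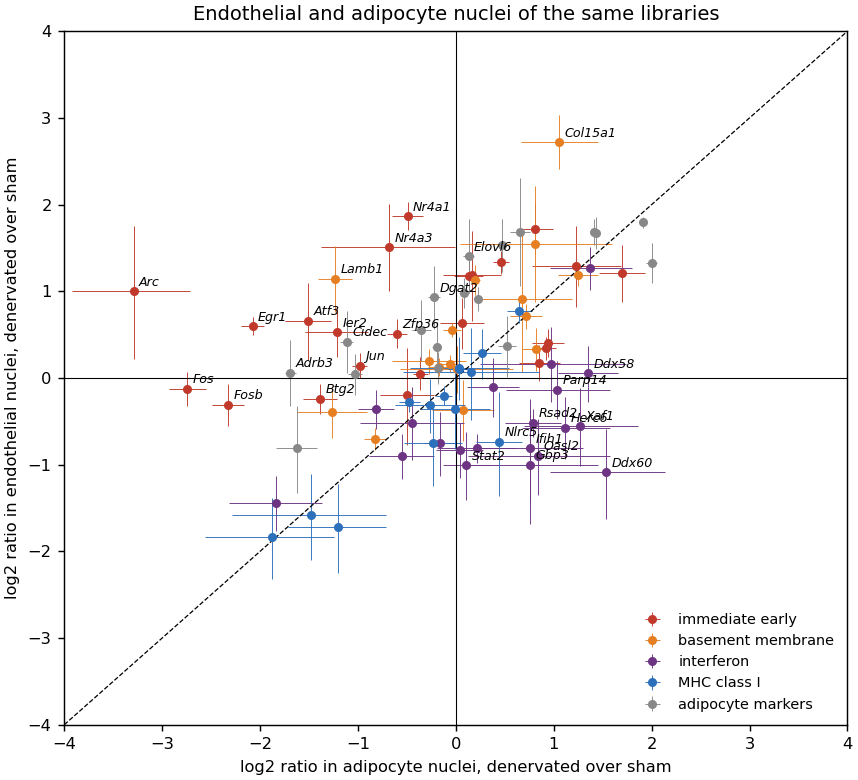
Log2 ratio of denervated over sham in endothelial nuclei (y axis) against that in adipocyte nuclei of the same libraries (x axis) for measured members of 5 gene lists with at least 50 UMIs in denervated and sham adipocyte nuclei together; bars are 95% counting intervals and the dashed line marks equal ratios. Nr4a1, at 1.87 and -0.49, and Lamb1, at 1.15 and -1.24, lie far above the line, and Ddx60, at -1.09 and 1.54, far below it.

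Inflammatory genes had ratios on both sides of 0. In the endothelial inflammation list 4 of the 22 measured members were at least 2-fold higher and 2 at least 2-fold lower (over all measured genes, 6.49% and 5.99%), and the median log2 ratio was 0.010. Cxcl1 and Vcam1 among the higher and Steap4 among the lower reached the measured level only through the library where they were high, so nothing is read from the count. Nfkbia, the inhibitor IkB alpha that NF-kB itself induces (chromosome 12 from 55489410 to 55492647), had 586 CPM (532 to 643) in denervated, 244 (226 to 264) in sham and 294 (275 to 314) in untreated nuclei. It had a log2 ratio of 1.26 (1.08 to 1.44) in endothelial and 1.39 (1.24 to 1.55) in adipocyte nuclei. Cxcl1, a chemokine gene for neutrophils, had 72.2, 13.4 and 2.96 CPM, a log2 ratio of 2.42 (1.79 to 3.07). In adipocyte nuclei it had 115 and 15.99 CPM, a log2 ratio of 2.85 (2.52 to 3.19). The log2 difference between the nucleus types was -0.13 (-0.37 to 0.10) for Nfkbia and -0.42 (-1.15 to 0.31) for Cxcl1. The filter fixed the endothelial call of Cxcl1, and its interval also holds a difference of 2-fold. Lrg1, a secreted glycoprotein gene of activated vessels, had 195, 62.8 and 25.3 CPM, a log2 ratio of 1.64 (1.31 to 1.97) in endothelial and 0.94 (0.71 to 1.17) in adipocyte nuclei. The adhesion gene Vcam1 had 21, 36 and 30 UMIs in denervated, sham and untreated nuclei, a log2 ratio of 1.06 (0.21 to 1.88). Ccl2, a monocyte chemokine gene below the measured level, had 24, 7 and 1 UMIs, of which 18 were in 1 denervated nucleus. Besides Cxcl9, the member at least 2-fold lower was Steap4, a metalloreductase gene that pericytes also express, at 17.4, 72.8 and 16.1 CPM.

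The NF-kB motif, searched as GGGAC or GGGAA followed by TTTCC on both strands, was in 0.244% of all promoters. Of the 17 measured inflammatory genes with an entry, 3 held it, Cxcl1, Nfkbia and Csf1, and Csf1 had a log2 ratio of -0.65 (-1.31 to -0.041). The motif was also in the entry of B2m, an MHC class I gene with a log2 ratio of 0.10 (-0.01 to 0.21). The bases before the start of Cxcl1 at chr5:90890995-90891244 (plus strand) and Nfkbia at chr12:55492648-55492897 (minus strand) are shown with the match in capitals, because these genes are described above.

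Cxcl1: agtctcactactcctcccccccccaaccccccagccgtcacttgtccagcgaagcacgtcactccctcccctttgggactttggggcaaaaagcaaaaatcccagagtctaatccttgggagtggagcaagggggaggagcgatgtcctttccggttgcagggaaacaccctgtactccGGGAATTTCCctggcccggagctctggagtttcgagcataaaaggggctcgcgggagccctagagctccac
Nfkbia: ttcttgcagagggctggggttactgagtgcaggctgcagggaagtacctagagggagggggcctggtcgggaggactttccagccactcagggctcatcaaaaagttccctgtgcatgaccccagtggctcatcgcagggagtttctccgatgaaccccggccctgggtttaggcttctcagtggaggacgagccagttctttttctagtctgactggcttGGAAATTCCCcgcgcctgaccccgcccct

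The match began 71 bases before the start in Cxcl1 and 29 before it in Nfkbia.

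Zbtb16, Sult1a1, Ddit4 and Hspa1b, from lists of genes that glucocorticoids or heat induce, were highest in the sham library. In the glucocorticoid list 1 of the 15 measured members were at least 2-fold higher and 3 at least 2-fold lower (over all measured genes, 6.49% and 5.99%), with a median log2 ratio of -0.37 over sham and 0.37 over untreated. Zbtb16, a zinc finger gene known to be induced by glucocorticoids (chromosome 9 from 48654297 to 48836222), had 44.1 CPM (30.4 to 61.95) in denervated, 413 (389 to 438) in sham and 26.99 (21.5 to 33.5) in untreated nuclei. It was 9.36-fold lower in denervated than sham nuclei, a log2 ratio of -3.23 (-3.77 to -2.73). It had 151, 655 and 63.1 CPM in adipocyte nuclei, so the sham library was the high one in both nucleus types. Sult1a1, a sulfotransferase gene, had 57.5, 313 and 121 CPM, a log2 ratio of -2.44 (-2.92 to -2.001). Ddit4, a stress-induced brake on mTOR, had 38.8, 106 and 49.4 CPM, a log2 ratio of -1.45 (-2.06 to -0.90). The metallothionein gene Mt1 went the other way, at 229, 69.9 and 64.5 CPM, with log2 ratios of 1.71 (1.40 to 2.02) in endothelial and -0.090 (-0.19 to 0.015) in adipocyte nuclei. In the heat shock list 0 of the 17 measured members were at least 2-fold higher and 1 at least 2-fold lower (over all measured genes, 6.49% and 5.99%), a share near that of all genes. Hspa1b, an HSP70 gene whose near copy Hspa1a can share its reads, had 1053, 2212 and 723 CPM, a log2 ratio of -1.07 (-1.18 to -0.96) in endothelial and -1.17 (-1.23 to -1.11) in adipocyte nuclei.

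**Figure D4:**
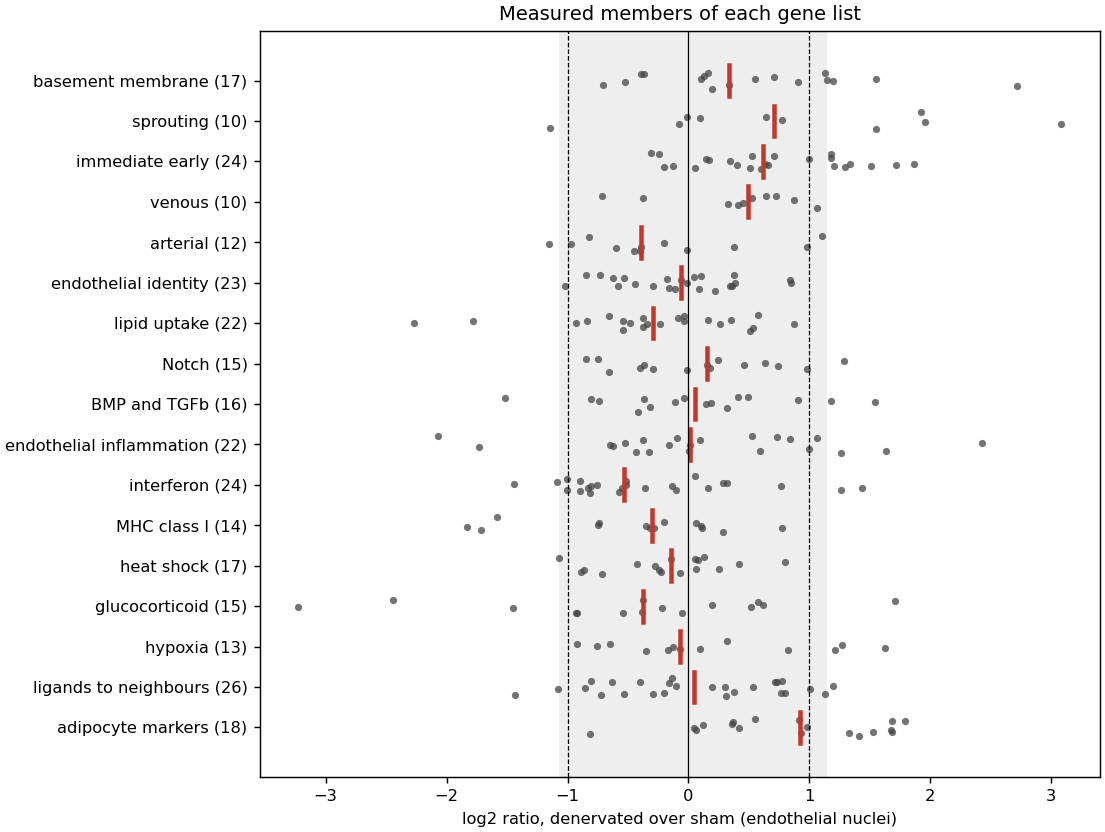
Log2 ratio of denervated over sham in endothelial nuclei (x axis) for every measured member of 17 gene lists (y axis, number of members in brackets); points are genes, red bars list medians, dashed lines 2-fold, and the grey band holds 90% of all measured genes, from -1.06 to 1.13. The medians were -0.53 for interferon genes, 0.62 for immediate early genes, and 0.92 for adipocyte markers.

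The other lists are given by their counts. In the VEGF and Tie receptor list 1 of the 15 measured members were at least 2-fold higher and 0 at least 2-fold lower (over all measured genes, 6.49% and 5.99%), the exception being Angpt1, an angiopoietin that adipocytes also express, at 65.5, 31.4 and 34.2 CPM with 1.08 (0.97 to 1.19) in adipocyte nuclei. Adra1a, the alpha 1A adrenergic receptor gene, was the vascular tone gene at least 2-fold higher, at 37.4, 14.6 and 18.4 CPM and 487 and 595 CPM in denervated and sham adipocyte nuclei. It reached the measured level only through the denervated library, as did the clock gene Bhlhe40. Vascular tone genes had 1 of 14 higher and 0 lower, clock genes 2 and 1 of 12, insulin and glucose genes 2 and 0 of 16, and guidance receptors 1 and 0 of 12, beside 6.49% and 5.99% of all measured genes. In the hypoxia list, whose members were chosen with earlier results known, nothing is read from the count. Of its 13 measured members 3 were at least 2-fold higher and 0 at least 2-fold lower (over all measured genes, 6.49% and 5.99%). All of those higher encode glycolytic enzymes: Aldoa had 1136, 368 and 815 CPM, a log2 ratio of 1.63 (1.49 to 1.76), beside 0.98 (0.92 to 1.03) in adipocyte nuclei. Ldha and Pgk1 had 1.22 (0.997 to 1.43) and 1.27 (0.82 to 1.71), beside 0.50 (0.41 to 0.59) and 0.78 (0.61 to 0.96) in adipocyte nuclei. The other measured hypoxia genes did not reach 2-fold. Of the nuclear RNAs, Malat1 had 13017, 15753 and 11099.7 CPM. Kcnq1ot1 and Meg3, both imprinted long noncoding RNAs, were lower than in sham, with log2 ratios of -1.46 (-1.74 to -1.19) and -1.98 (-2.71 to -1.32). Over untreated nuclei these ratios were -0.47 and 0.82.

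Among genes with a mean of at least 50 CPM, the 15 largest log2 ratios of denervated over sham ran from 2.06 to 3.37 and the 15 smallest from -3.24 to -1.88. Of the 15 largest, 8 had a higher CPM in adipocyte than in endothelial nuclei of both libraries, beside 3 of the 15 smallest. These include Lctl, a klotho-related gene with the largest ratio, which reached the measured level only through the denervated library, so the filter fixed its call. It had 104, 10.1 and 49.4 CPM in endothelial and 854 and 141 CPM in adipocyte nuclei. Another was Ppp1r3b, a glycogen-targeting phosphatase subunit gene, at 349, 54.2 and 464 CPM, with a log2 ratio of 1.05 (1.01 to 1.09) in adipocyte nuclei. Hp, which encodes the acute-phase hemoglobin scavenger haptoglobin, had 604 CPM (549.8 to 663) in denervated, 75.8 (65.8 to 87.01) in sham and 66.8 (57.9 to 76.7) in untreated nuclei, a log2 ratio of 2.99 (2.75 to 3.24). In adipocyte nuclei Hp had 549 and 258 CPM, a log2 ratio of 1.09 (0.99 to 1.18). Its level in denervated endothelial nuclei was thus close to that in adipocyte nuclei. It was detected in 16.2% (14.04 to 18.5) of thinned denervated endothelial nuclei and 13.5% of adipocyte nuclei, against 1.88% and 7.76% in sham. Gpx3, a secreted glutathione peroxidase gene, had 848, 195 and 367 CPM, a log2 ratio of 2.12 (1.95 to 2.29) in endothelial and 0.34 (0.28 to 0.40) in adipocyte nuclei. The part of adipocyte RNA in these values was not tested. With the adipocyte profile of the same library subtracted, an alternative chosen after seeing the data, Lctl, Ppp1r3b, Hk2, Ntrk3 and Mapk1ip1 were no longer measured. The 51 others of the 56 genes tried kept their direction, 8 of them with a ratio outside the interval of the unsubtracted value, and the log2 ratio of Kit became 0.85. Most of the 56 were chosen for large ratios, which favours a kept direction. Of sugar metabolism, the hexokinase gene Hk2 had 106, 23.9 and 104 CPM and the transketolase gene Tkt 786, 159 and 489 CPM, and in adipocyte nuclei their log2 ratios were 0.75 (0.68 to 0.82) and 1.89 (1.84 to 1.94). The neurotrophin receptor gene Ntrk3 had 222, 44.5 and 161 CPM, and 2633 and 1441 CPM in adipocyte nuclei, a log2 ratio of 0.87 (0.83 to 0.91) there. The ubiquitin ligase gene Mid1 had 118, 21.3 and 35.2 CPM, and 387 and 74.3 CPM in adipocyte nuclei, with log2 ratios of 2.47 (1.97 to 2.97) in endothelial and 2.38 (2.22 to 2.54) in adipocyte nuclei. Among the smallest ratios, the metalloproteinase gene Mmp28 had 21.4, 116 and 42.5 CPM, the netrin-family gene Ntng2 28.1, 161 and 56.6 CPM and the glutathione transferase gene Gstt2, whose relatives can share its reads, 64.2, 295 and 123 CPM. Of the 15 largest and the 15 smallest ratios, 5 and 5 belonged to endothelial-leaning genes. Next among endothelial-leaning genes, taken after the values were seen, the survival gene Bcl2 had 76.2, 27.3 and 79.3 CPM, a log2 ratio of 1.48 (0.96 to 2.002) over sham and -0.058 over untreated. Apold1, a vascular early response gene, had 235, 79.2 and 140.2 CPM, a log2 ratio of 1.57 (1.27 to 1.87). The untreated level lay between the other libraries for 11 of the 15 largest and 13 of the 15 smallest ratios. The choice of genes by extreme ratios favours that outcome, and the share over all measured genes was not taken. Nothing is read from these counts.

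**Figure D5:**
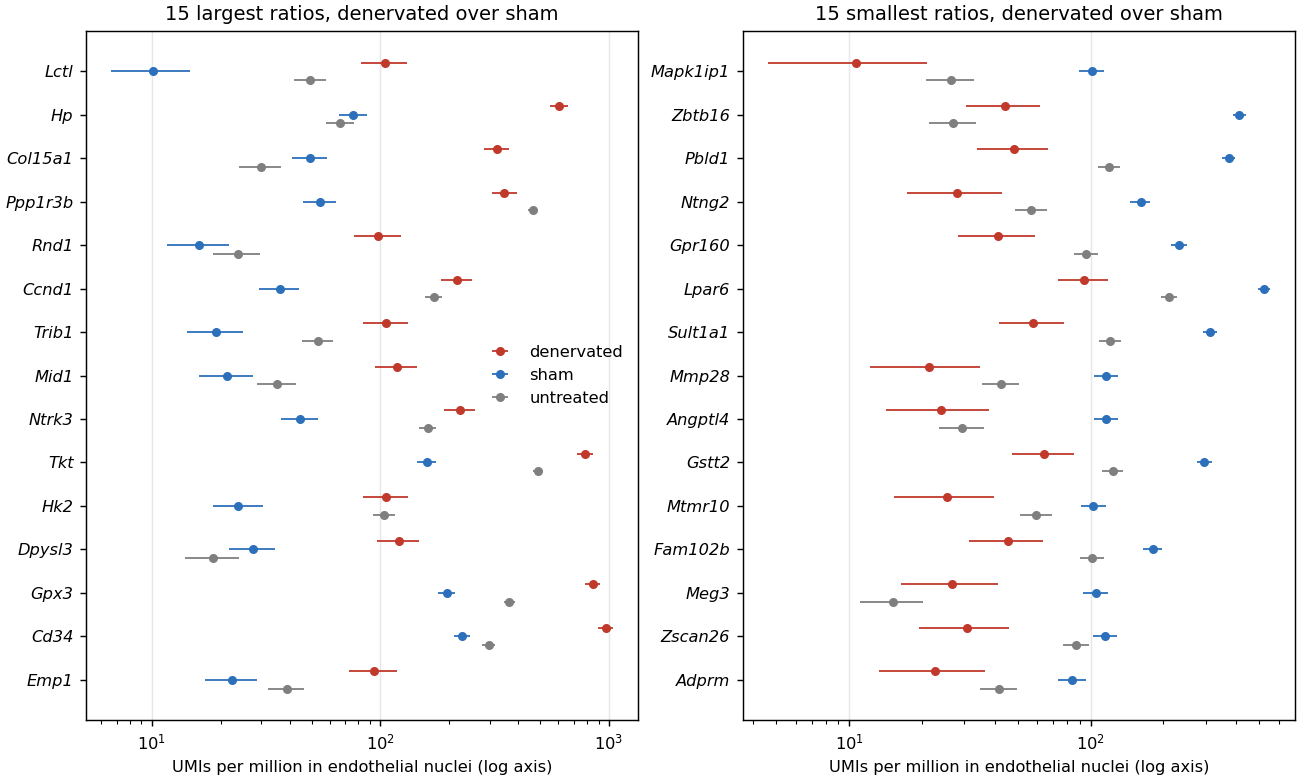
Levels of the 15 genes with the largest (left) and the 15 with the smallest (right) ratio of denervated over sham in endothelial nuclei (x axis, CPM, log axis) in the denervated, sham and untreated libraries; points are library values and bars 95% Poisson intervals. The denervated and sham intervals do not overlap for any of these genes, which the choice of genes fixes, and Zbtb16 is high in the sham library only, at 413 CPM.

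Cd34, Col15a1, Nr4a1, Car4, Ablim3 and Bmp6 kept the direction of their ratio in each vessel class. Most of these genes were chosen for large ratios over the same nuclei, so the choice largely fixed that outcome. Nuclei with at least 2 UMIs of an arterial list and more than of a venous list were called arterial, and the converse venous. At 300 UMIs per nucleus, arterial nuclei were 8.66% of denervated (7.07 to 10.5) and 8.49% of sham nuclei (7.64 to 9.42), and venous nuclei 26.6% (24.04 to 29.3) and 18.7% (17.5 to 19.9). Without thinning arterial nuclei were 12.4% and 16.1%, and venous nuclei 36.7% and 34.1%. The classes are made from the genes of the lists, so a shift of these genes moves nuclei between them: the arterial list had a median ratio of -0.40 and the venous list one of 0.49. Within the classes, Cd34 had log2 ratios of 1.91 (1.44 to 2.38) in arterial, 2.24 (2.03 to 2.46) in venous and 1.78 (1.501 to 2.06) in other nuclei. Col15a1 had 3.12 (1.77 to 4.58), 2.59 (2.24 to 2.96) and 2.65 (1.85 to 3.49). Nr4a1 had 1.73 (1.30 to 2.16), 1.80 (1.56 to 2.04) and 1.99 (1.72 to 2.25). On the lower side, Car4 had -1.75 (-2.34 to -1.21), -1.94 (-2.26 to -1.63) and -1.67 (-1.96 to -1.40). Ablim3 had -2.01 (-2.42 to -1.63), -1.78 (-1.98 to -1.59) and -1.504 (-1.69 to -1.33). Bmp6 had -1.28 (-1.89 to -0.72), -1.42 (-1.72 to -1.14) and -1.54 (-1.86 to -1.24). Their intervals overlapped between the classes. Of 66 genes tried, 4 had a pair of classes whose intervals did not overlap, Apln, Mcam, Meg3 and Xdh, and these differences were not tested. The share over all measured genes was not taken, so nothing is read from that count. Xdh had -2.03 (-2.29 to -1.79) in venous and -1.38 (-1.59 to -1.18) in other nuclei. Mcam had 2.53 (2.09 to 2.97) and 1.38 (0.83 to 1.93). Meg3 had 0 and 73 UMIs in denervated and sham arterial nuclei, and a log2 ratio of -0.71 (-1.73 to 0.19) in other nuclei. Apln had 1 UMI in sham arterial nuclei and a log2 ratio of 2.48 (1.71 to 3.27) in venous nuclei. It had 41 of its 64 denervated UMIs in venous, 19 in arterial and 4 in other nuclei.

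Depth and mitochondrial share differed between the libraries together with the condition. With denervated and sham nuclei matched on UMIs per nucleus, and with nuclei limited to 10% mitochondrial UMIs, all 56 genes tried kept the direction of their ratio. These were the 15 largest and 15 smallest ratios, the same among endothelial-leaning genes, and Kitl, Kit, Bmp6, Hspg2, Efnb1 and Efnb2. Most were chosen for large ratios in these same nuclei, so the choice largely fixed that outcome. The ratio left the interval of the main value for 4 of the 56 with matching and for 11 with the mitochondrial limit. The median log2 ratio of the immediate early list ran from 0.49 to 0.94 over all alternatives, that of the basement membrane list from 0.16 to 0.95, and that of the interferon list from -1.28 to -0.27. Other medians changed sign, as those of the lipid uptake (-0.36 to 0.93), MHC class I (-0.52 to 0.16) and arterial lists (-0.47 to 0.37). The sign differed for 10 of 29 list medians with untreated as the comparison and for 11 of 27 with ambient RNA subtracted. Col15a1 ranged over the alternatives from 2.29 to 4.80, Cd34 from 1.70 to 3.78, Car4 from -2.24 to -0.62 and Bmp6 from -5.63 to -0.91. Nr4a1 kept its direction except when the profile of small barcodes was subtracted as ambient RNA, where its log2 ratio was -3.47.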

How the data were processed

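Single-nucleus RNA was measured in 3 libraries, 1 each of denervated, sham and untreated brown adipose tissue. The deposited tables hold raw UMI counts for each barcode and gene, which the authors made with the BD Rhapsody analysis pipeline. The headers of the denervated and untreated tables name GRCm38 with GENCODE annotation, the sham table has no header lines, and the labels give GRCh38, which is another organism's build, and Seurat 4.0.6. The tables hold no debris, ambient RNA or doublet removal.

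From the counts, barcodes with fewer than 200 detected genes or more than 50% mitochondrial UMIs were left out, nuclei were selected by the marker rule, and UMIs of nuclear genes were summed per library and scaled to 1000000 (CPM). No doublet caller was run, and the rule of 4 times the adipocyte and pericyte sums limits nuclei of mixed markers without removing all of them. Of the 5865 selected nuclei, 3597 held no adipocyte or pericyte UMI of the rule. Genes with a mean of at least 20 CPM were compared, and 2-fold is the size used to call a difference, since 1 library per group allows no test. Intervals at 95% are exact Poisson for CPM, conditional binomial for ratios and Clopper-Pearson for shares. They cover counting error only. Adipocyte and pericyte nuclei were chosen by the same kind of rule. Named genes are the 15 largest and 15 smallest ratios among genes with a mean of at least 50 CPM, 6 ligand and receptor genes the study discusses, and members of 35 gene lists. The 56 genes tried under the alternatives are the first of these groups, the 6 genes, and the 15 largest and 15 smallest ratios among endothelial-leaning genes. For the lists, the median was tried. The members and lists were chosen with earlier results of these data known. The ratio step was tested on simulated data. Positions come from GENCODE and promoters from RefSeq, both on GRCm38. Python 3.11.15, numpy 2.4.6, scipy 1.17.1, pandas 2.3.3 and matplotlib 3.10.9 were used. The alternatives numbered 14, with 2 more chosen after seeing the data.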

Additional observations from a re-analysis of the deposited data

Results flagged for a closer look

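Lamb1, the laminin beta 1 chain gene, differed between denervated and sham nuclei in opposite directions by nucleus type. Its log2 ratio was 1.15 (0.76 to 1.53) in endothelial nuclei, from 126 against 56.8 CPM, and -1.24 (-1.41 to -1.06) in adipocyte nuclei, from 72.9 against 172 CPM. The difference between the nucleus types was 2.38 (1.96 to 2.80) on the log2 scale. With 1 library per condition this difference was not tested, and the interval covers counting error only.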

How the results depend on the processing

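The number of selected endothelial nuclei, 5865, became 1815 with at least 500 detected genes, 3882 with at most 10% mitochondrial UMIs, 3547 with at least 6 endothelial UMIs, 3597 with no adipocyte or pericyte UMI of the rule, and 3774 with barcodes thinned to 300 UMIs first. The 501 genes at least 2-fold higher and 462 lower became 1008 and 931 with at least 500 detected genes, 279 and 199 at a mean of at least 50 CPM, 2920 and 1617 with only 3 UMIs required in total, and 225 and 87 with untreated in place of sham nuclei. Genes 2-fold higher numbered 770 with at most 10% mitochondrial UMIs, and genes 2-fold lower 275 with totals that include mitochondrial genes. Among endothelial-leaning genes, a choice made after seeing the data, they were 71 and 105.

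Subtracting the profile of barcodes under 200 genes as ambient RNA gave 2467 higher and 3035 lower, and the log2 ratio became -3.47 for Nr4a1, 0.49 for Cxcl9 and -6.13 for Kitl. The level subtracted was set from the adipocyte markers, at 0.939 for denervated and 0.385 for sham nuclei, and left 21.1% and 62.2% of UMIs. The barcodes also held 11098 and 10417 CPM of the rule's endothelial genes, against 13676 and 12900 in the nuclei. With untreated as the comparison, the log2 ratios reversed to -0.058 for Bcl2, 0.91 for H2-Q6, 0.36 for H2-Q7, -0.20 for Id1, 0.82 for Meg3, -0.41 for Ppp1r3b and 0.71 for Zbtb16, and that of Efnb1, under 2-fold in both comparisons, went from 0.30 to -0.48. Under 2-fold, Kitl changed sign with totals that include mitochondrial genes, and Efnb2 with barcodes thinned first and without arterial, venous and lymphatic nuclei. The 56 genes tried kept their direction with at least 6 endothelial UMIs, with at least 500 genes and with each nucleus weighted equally. Their choice by large ratios largely fixed that outcome, and 5, 24 and 5 of them left the interval of the main value. The cause of these changes was not tested. No paired analysis was possible because each condition has 1 library. No library could be left out for the same reason. A count of 3 UMIs corresponds to 4.01 CPM in denervated and 1.12 CPM in sham nuclei, the limit that a count of 0 allows.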
